A study of Mus musculus with 4 samples.

Results

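Cathepsins and cystatins were followed in CD45-positive cells of the injured mouse brain, as the 10 genes Ctsa, Ctsb, Ctsc, Ctsd, Ctsh, Ctsl, Ctss, Ctsz, Cst3 and Cst7, chosen by their symbols among 32285 genes in the deposited matrices. All 10 were measured in all 8 matrices. The cells came from C57B6/J mice with a cortical brain injury, and the compared groups were the thalamus and the hippocampus (HPC), each with 4 sets of cells marked by multiplexing oligos (n = 4 and 4). Each set was taken as 1 mouse, an assumption made because the methods of the study name 4 animals per region. Neither those methods nor the labels tie a set to a mouse, so p-values measure the spread between these sets. Every mouse was injured, no uninjured tissue was among the samples, and the labels give neither the age of the mice nor the time after injury. Each region was a single 10x Genomics library of sorted cells, and for this reason a difference of region cannot be told apart from one of library.

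Cathepsins are proteases that work mainly in the acid interior of lysosomes, where they break down proteins taken up by phagocytosis or delivered from within the cell. Most are cysteine proteases of the papain family, cathepsin D is an aspartic protease and cathepsin A a serine carboxypeptidase. Cystatins are reversible inhibitors of the cysteine cathepsins. Cystatin C, from Cst3, is secreted and abundant in the brain, whereas cystatin F, from Cst7, is made by leukocytes, is carried to lysosomes and is a known marker of disease-associated microglia (DAM), the phagocytic state that microglia enter around damaged tissue. Genes of lysosomal proteins are controlled in part by the transcription factors of the TFEB family, which bind the letters CACGTG.

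Start regions are shown for the members that were higher in the thalamus and whose start region held CACGTG or TGANTCA. A start region ran from 250 bases before to 50 bases after a RefSeq gene start (build GRCm38.p6), and 8 of the 10 members matched 9 such windows. The search covered both strands for CACGTG, its extension TCACGTGA, which always contains CACGTG, the AP-1-type letters TGANTCA and the PU.1-type letters GAGGAAGT. The sequences below end 12 bases into the transcript, run 5′ to 3′ along the strand of the gene, and carry CACGTG in capitals, or TGANTCA in the case of Cst7. The second Ctsa window lies at chr2:164833523-164833784 on the plus strand, Ctsd at chr7:142387816-142388077 on the minus strand, Ctsl at chr13:64370509-64370770 on the minus strand and Cst7 at chr2:150570165-150570426 on the plus strand.
Ctsa: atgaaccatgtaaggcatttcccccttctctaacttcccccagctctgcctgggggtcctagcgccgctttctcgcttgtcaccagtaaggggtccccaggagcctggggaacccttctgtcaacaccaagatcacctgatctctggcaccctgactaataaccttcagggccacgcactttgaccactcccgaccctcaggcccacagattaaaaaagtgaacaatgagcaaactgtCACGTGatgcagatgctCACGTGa
Ctsd: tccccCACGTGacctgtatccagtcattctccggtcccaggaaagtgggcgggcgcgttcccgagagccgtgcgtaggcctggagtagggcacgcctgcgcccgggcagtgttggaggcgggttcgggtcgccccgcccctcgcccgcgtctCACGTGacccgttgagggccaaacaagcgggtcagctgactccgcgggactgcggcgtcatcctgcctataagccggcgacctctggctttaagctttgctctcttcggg
Ctsl: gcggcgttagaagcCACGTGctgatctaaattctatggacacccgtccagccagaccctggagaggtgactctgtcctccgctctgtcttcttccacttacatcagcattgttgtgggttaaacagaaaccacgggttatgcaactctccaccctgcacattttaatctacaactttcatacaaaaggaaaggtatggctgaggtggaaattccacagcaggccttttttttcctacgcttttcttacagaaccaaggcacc
Cst7: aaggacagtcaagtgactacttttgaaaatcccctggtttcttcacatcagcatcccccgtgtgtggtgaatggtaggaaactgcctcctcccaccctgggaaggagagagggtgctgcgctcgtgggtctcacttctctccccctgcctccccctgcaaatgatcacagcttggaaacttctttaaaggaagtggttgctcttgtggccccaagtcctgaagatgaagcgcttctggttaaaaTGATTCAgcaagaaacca
The second Ctsa window held CACGTG 12 bases before and 5 bases after its start, and both copies lay within TCACGTGA. The first Ctsa window, at chr2:164832622-164832883 on the plus strand, held none of the letters searched. Ctsd held CACGTG 245 and 98 bases before the start, the nearer copy within TCACGTGA, and Ctsl 236 bases before. CACGTG was present in 3 of the 9 member windows and in 7.15% of all 32851 windows, and TCACGTGA in 2 of 9 and in 0.974%. Cst7 held TGANTCA 6 bases before the start, letters found in 7.81% of all windows. GAGGAAGT stood 2 bases before the start of Ctss and 151 bases before that of Ctsc, and in 3.2% of all windows. A match describes the letters only.

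All 10 genes are protein-coding (GENCODE M21, GRCm38). Cst7 lies at chr2:150570415-150578944 on the plus strand, Cst3 at chr2:148871722-148875692 on the minus strand, Ctsb at chr14:63122462-63145923 on the plus strand, Ctsd at chr7:142375911-142388038 on the minus strand and Ctsl at chr13:64359337-64370890 on the minus strand. Ctsa lies at chr2:164832873-164841032 on the plus strand. The windows printed above for Ctsa and Ctsl lie wholly inside these gene bounds, and that for Ctsd in part. Ctsd overlaps Gm49369, Ctsl the processed pseudogene Gm49230 and Ctss the processed pseudogene Hmgb1-ps5 on their own strand, so a part of their molecules could have been left out or counted to the other gene. The counts were made from the 3′ ends of transcripts over whole genes, so exons and transcript forms were not told apart.

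After filtering, 24939 of 29190 cells were kept, with a median of 4261.5 to 4596.5 unique molecules (UMIs) per cell in the 4 thalamic and 4534 to 4657 in the 4 HPC sets. Ptprc, the gene of CD45, was detected in 84.6% of the cells. Cells were grouped by clustering without the members and named from marker genes that include no member. Microglia-like cells were clustered again, also without the listed genes of the members' pathway. Microglia-like cells numbered 8260 in the thalamus and 10450 in the HPC. Among them, clusters rich in DAM markers (DAM-like) held 2161 and 612 cells and clusters rich in resting-state markers (homeostatic-like) 4182 and 7137 cells. HPC set 1 stood apart from the other HPC sets, with 9.98% of its microglia-like cells DAM-like against 2.62% to 5.25%, and thalamus set 1 with 37.9% against 17.9% to 25.2%, so results that turn on these sets are also given without them. No cell barcode was found in more than 1 set of a region, and 65 barcodes occurred in both regions. Levels are UMIs per 10000 UMIs of all genes in the cells of a set, and they are compared between cells for 1 gene and not between genes.

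Across cell classes the members differed in where they were high. Ctsd and Ctsl, which code for lysosomal endopeptidases, and Ctsz, which codes for a carboxypeptidase, had higher mean levels in microglia-like cells than in the other classes in both regions. Ctsb, another endopeptidase, had 21.03 ± 5.21 in thalamic microglia-like and 14.2 ± 2.83 in macrophage- or monocyte-like cells (SD, n = 4 and 4), but 11.7 ± 2.08 and 11.9 ± 1.33 in the HPC (n = 4 and 3), which overlapped. Ctsd, the aspartic protease, had a level of 72.2 ± 15.2 (SD, n = 4) in thalamic and 45.2 ± 6.11 (SD, n = 4) in HPC microglia-like cells. In macrophage- or monocyte-like cells it was 19.7 ± 5.41 (n = 4) and 11.9 ± 3.30 (n = 3 sets with at least 20 cells). In neutrophil-like cells it was 25.8 ± 8.04 and 14.3 ± 5.42 (n = 3 and 3), in T- or NK-like cells 13.7 ± 3.88 and 10.2 ± 3.33 (n = 4 and 4), and in dendritic-like cells 4.95 ± 1.30 and 5.27 ± 2.93 (n = 3 and 2). The macrophage- or monocyte-like range of Ctsd overlapped with the neutrophil-like and the T- or NK-like range in each region, and the microglia-like range lay above all of them.

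Ctsc had another order. Cathepsin C activates the serine proteases of granules in cytotoxic and myeloid cells. Its level was 9.27 ± 0.653 (n = 4) and 8.57 ± 0.451 (n = 3) in macrophage- or monocyte-like cells of thalamus and HPC, above 4.82 ± 0.290 and 4.06 ± 0.455 in microglia-like cells, 2.39 ± 0.553 and 1.83 ± 0.362 in dendritic-like cells, 1.22 ± 0.275 and 1.29 ± 0.403 in T- or NK-like cells and 0.451 ± 0.316 and 0.656 ± 0.254 in neutrophil-like cells. The macrophage-like and microglia-like ranges of Ctsc did not overlap, and the dendritic-like and T- or NK-like ranges overlapped in the HPC alone. Ctsh, an aminopeptidase of the family, was at similar levels in the 3 antigen-presenting classes. It stood at 10.4 ± 0.611 and 9.42 ± 0.676 in microglia-like, 9.02 ± 0.959 and 8.04 ± 0.720 in macrophage- or monocyte-like and 8.98 ± 1.92 and 8.15 ± 1.39 in dendritic-like cells. T- or NK-like cells had 1.62 ± 0.514 and 1.55 ± 0.405 of it. Ctss, which cleaves the invariant chain of MHC class II molecules, was lower step by step from microglia-like cells (53.9 ± 3.76 and 48.1 ± 4.5) through macrophage- or monocyte-like (35.6 ± 3.70 and 31.1 ± 3.78) and dendritic-like cells (20.6 ± 3.04 and 17.6 ± 1.81) to T- or NK-like cells (9.31 ± 2.12 and 8.74 ± 2.01), with no overlap between neighbours of this order within a region.

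**Figure D1:**
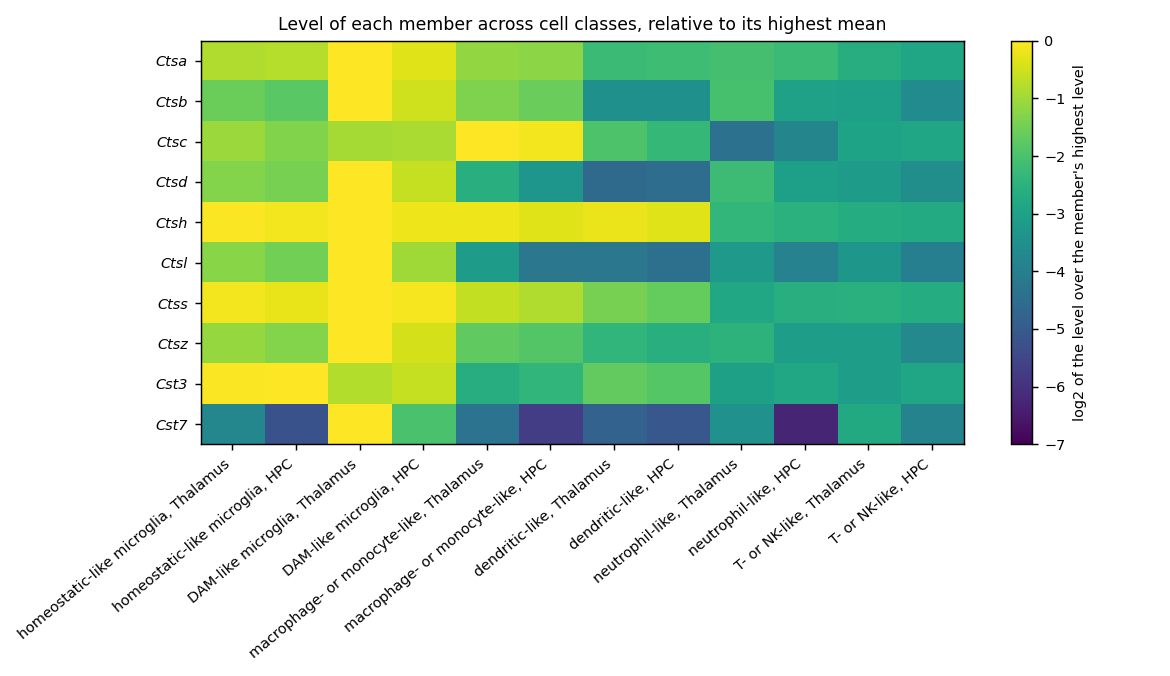
Mean level of each member in each cell class and region, as the log2 of its ratio to the highest mean of that member, with members in rows and classes by region in columns. Ctsb, Ctsd, Ctsl, Ctsz and Cst7 are highest in DAM-like cells of the thalamus, Ctsc in macrophage- or monocyte-like cells, and Cst3 in homeostatic-like cells.

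The cystatins also differed from each other. Cst3 had a level of 261 ± 16.4 and 270 ± 9.05 (SD, n = 4) in homeostatic-like cells of thalamus and HPC, 83.3 ± 26.2 and 75.5 ± 24.8 in dendritic-like, 43.0 ± 7.76 and 51.2 ± 15.3 in macrophage- or monocyte-like, and 31.9 ± 14.0 and 37.4 ± 13.2 in T- or NK-like cells. Cst7 had 11.1 ± 2.96 and 2.75 ± 1.02 in DAM-like cells and 1.64 ± 0.411 and 0.760 ± 0.22 in T- or NK-like cells. After thinning each cell to 2000 UMIs, 85.7% of thalamic and 83.8% of HPC T- or NK-like cells held a Cst3 UMI. The T- or NK-like cluster led by Gzma and Nkg7 had 67.7 ± 16.9 (n = 4) and 77.2 ± 28.4 (n = 3) of Cst3, while that led by Trdc had 13 ± 1.54 and 9.40 ± 1.25. In the Gzma-led cluster 3 microglial markers also passed the naming limits, and its median was 5265 UMIs, against 3468.5 in the Trdc-led cluster. Transcripts released from other cells can enter a droplet, and no doublet caller was run. The part of released transcripts and of doublets in the levels of lymphocytes and neutrophils was not tested.

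The first comparison asked whether the members differed between thalamus and HPC over all microglia-like cells. Ctsb, Ctsd, Ctsl, Ctsz and Ctsa were higher in the thalamus by 1.28- to 1.88-fold, and Cst7 by 8.79-fold, while Cst3, Ctsc, Ctsh and Ctss did not pass the test. The test was the edgeR quasi-likelihood test on UMIs summed per set, with Benjamini-Hochberg adjustment over 12951 genes and a threshold of 0.05. It called 6 of 10 members, all higher in the thalamus, against 14.2% of all genes tested in either direction and 9.19% higher in the thalamus. The median log2 fold change was 0.51 over the members and -0.01 over all genes tested. Fewer cells of a state and less RNA per cell cannot be told apart in these sums.

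Among the proteases, Ctsb was at 28.4, 17.5, 17.3 and 20.9 UMIs per 10000 in thalamus sets 1 to 4 and at 14.5, 10.6, 9.71 and 12.1 in HPC sets 1 to 4. Each thalamus set lay above each HPC set, as held in either direction for 21.5% of all genes, and set 1 was the high one of each region. The log2 fold change of Ctsb was 0.91 ± 0.201 (SE, edgeR adjusted p = 0.0168). Ctsl, an endopeptidase of endosomes and lysosomes, was at 33.6, 19.7, 19.4 and 23.4 in the thalamus and at 16.7, 12.8, 11.5 and 13.7 in the HPC. These did not overlap either, with a log2 fold change of 0.88 ± 0.207 (edgeR adjusted p = 0.0214). Ctsd was at 93.9, 59.1, 64.9 and 71.0 in the thalamus and at 53.9, 41.5, 40.4 and 45.1 in the HPC, again with no overlap, and its log2 fold change was 0.74 ± 0.186 (edgeR adjusted p = 0.0270). Ctsz, with 28.3, 20.7, 20.7 and 23.0 against 19.8, 14.0, 13.1 and 14.1, rose by 0.67 ± 0.175 on the log2 scale (edgeR adjusted p = 0.0328), and the lowest thalamus set lay just above HPC set 1. Ctsa, whose product also stabilises lysosomal beta-galactosidase and neuraminidase, rose by 0.35 ± 0.0990 (edgeR adjusted p = 0.0414), from 4.36 ± 0.353 to 5.31 ± 0.443 (SD, n = 4 and 4).

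Cst7 was at 8.01, 2.94, 3.10 and 4.16 UMIs per 10000 in the thalamus sets and at 1.04, 0.379, 0.203 and 0.509 in the HPC sets. The lowest thalamus set was above the highest HPC set, and set 1 was again the high one in both regions. The log2 fold change was 3.14 ± 0.516 (edgeR adjusted p = 0.00544). Cst3 was at 161, 204, 244 and 214 in the thalamus and at 186, 259, 270 and 239 in the HPC, so the ranges overlapped, and set 1 was the low one in both regions. Its log2 fold change of -0.14 ± 0.187 did not pass the test (edgeR adjusted p = 0.643). Ctsc had a log2 fold change of 0.32 (edgeR adjusted p = 0.0665), Ctsh one of 0.21 (edgeR adjusted p = 0.148) and Ctss one of 0.23 (edgeR adjusted p = 0.229). In a fit that paired the sets by their number (the replicate block), 9 of 10 members were called, against 30% of all genes, Ctsc, Ctsh and Ctss joining the others.

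**Figure D2:**
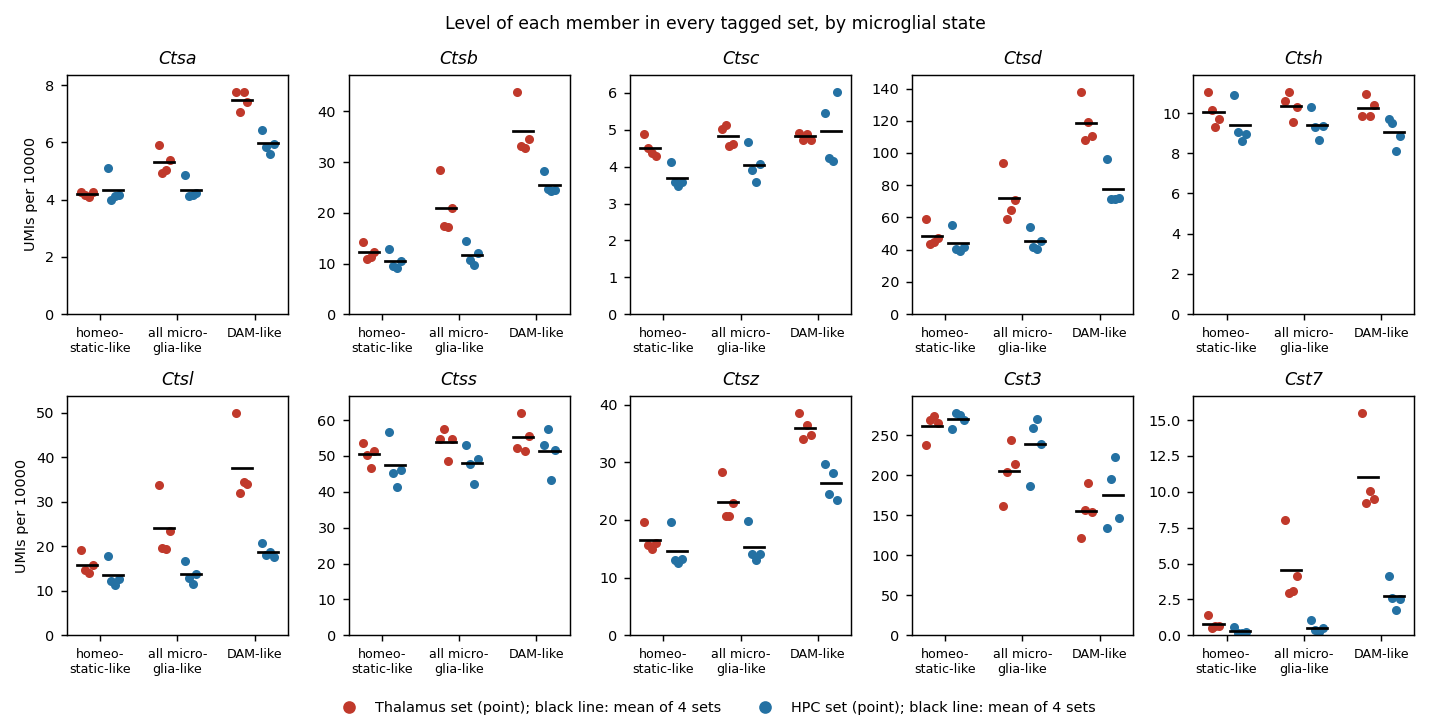
Level of each member (UMIs per 10000, 1 panel a gene) in homeostatic-like, all microglia-like and DAM-like cells, with a point for each tagged set, colours for the regions and a black line at the mean of 4 sets. In DAM-like cells the thalamus points of Ctsb, Ctsd, Ctsl, Ctsz, Ctsa and Cst7 lie above all HPC points, while those of Cst3, Ctsc and Ctss overlap with them.

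The call of these members depended on single sets. Leaving out HPC set 2 left only Cst7 called, with 6.36% of all genes. Leaving out thalamus set 4, HPC set 3 or HPC set 4 left Cst7 and Ctsb, with 7.88%, 9.79% and 7.85% of all genes. Without HPC set 1, 9 members were called against 23.5% of all genes, with log2 fold changes of 1.06 ± 0.181 for Ctsb (edgeR adjusted p = 0.00329) and 3.75 ± 0.431 for Cst7 (edgeR adjusted p = 0.000588). Without thalamus set 1, Cst7, Ctsl and Ctsb were called with 7.9% of all genes, and Cst7 was at 2.69 ± 0.452 (edgeR adjusted p = 0.0114). Members that lost their call without a set kept log2 fold changes of 0.28 (Ctsa) to 0.90 (Ctsl).

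The makeup of the microglia-like cells moved with these levels. DAM-like cells were 37.9%, 17.9%, 20.4% and 25.2% of the microglia-like cells in the thalamus sets and 9.98%, 3.78%, 2.62% and 5.25% in the HPC sets. Of the 16 listed DAM markers 13 were higher in thalamic microglia-like cells, with sums of 244 to 503 against 52.1 to 326 UMIs per 10000. Of 18 tested genes known to respond to cell dissociation, 7 were higher (57.6 to 82.6 against 54.6 to 70.3). The comparison within a state, which follows, holds this makeup closer to constant.

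Within DAM-like cells the same 6 members were higher in the thalamus. Cst7 was at 15.5, 9.20, 10.1 and 9.52 UMIs per 10000 in the thalamus sets and at 4.16, 2.58, 1.74 and 2.50 in the HPC sets. The lowest thalamus set was above the highest HPC set, and the log2 fold change was 2.03 ± 0.203 (4.07-fold, edgeR adjusted p = 4.59e-06). In this comparison 5.37% of 9870 genes were called and 3.7% were higher in the thalamus, against 6 of the 10 members. The median log2 fold change was 0.49 over the members and -0.02 over all genes tested.

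Ctsl was at 49.8, 31.9, 34.5 and 33.9 in thalamic DAM-like cells and at 20.7, 18.1, 18.7 and 17.5 in those of the HPC. All thalamus sets were higher, and the log2 fold change was 1.12 ± 0.138 (2.17-fold, edgeR adjusted p = 3.99e-05). Ctsd was at 138, 108, 119 and 111 against 96.3, 71.8, 71.3 and 71.8, with no overlap and a log2 fold change of 0.72 ± 0.144 (edgeR adjusted p = 0.00419). Ctsb was at 43.8, 33.2, 32.9 and 34.6 against 28.3, 24.6, 24.3 and 24.4, with no overlap and a log2 fold change of 0.62 ± 0.123 (edgeR adjusted p = 0.00401). In both genes set 1 was again the high set of its region. Ctsz, at 35.9 ± 2.00 against 26.5 ± 2.94 (SD, n = 4 and 4), rose by 0.56 ± 0.114 on the log2 scale (edgeR adjusted p = 0.00532), and Ctsa, at 7.49 ± 0.334 against 5.97 ± 0.355, by 0.43 ± 0.0965 (edgeR adjusted p = 0.0107).

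The other members did not pass the test in DAM-like cells. Ctsh was at 9.85, 10.9, 9.86 and 10.4 against 9.73, 9.51, 8.09 and 8.86, which did not overlap, with a log2 fold change of 0.28 (edgeR adjusted p = 0.113). Levels without overlap were seen for 7 members and for 13.9% of all genes. Under the block Ctsh was called too (edgeR adjusted p = 0.0346), making 7 of 10 members against 7.95% of all genes. Ctss had a log2 fold change of 0.22 (edgeR adjusted p = 0.357), Ctsc one of 0.05 (edgeR adjusted p = 0.891) and Cst3 one of -0.04 ± 0.162 (edgeR adjusted p = 0.932), with Cst3 at 121, 157, 190 and 154 against 134, 195, 222 and 147. Leaving out any single set kept the 6 members called. Without HPC set 1 the log2 fold change of Ctsd was 0.88 ± 0.104 and that of Cst7 2.38 ± 0.183, and without thalamus set 1 they were 0.64 ± 0.15 and 1.81 ± 0.174. Of the DAM markers 13 of 16 were also higher in thalamic DAM-like cells (647 to 819 against 298 to 650 UMIs per 10000), and their part in the members' difference was not tested. Macrophage and monocyte markers summed to 0.626 to 0.974 against 0.5 to 1.42, with 0 of 2 tested called and 1 of 12 at 0.

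**Figure D3:**
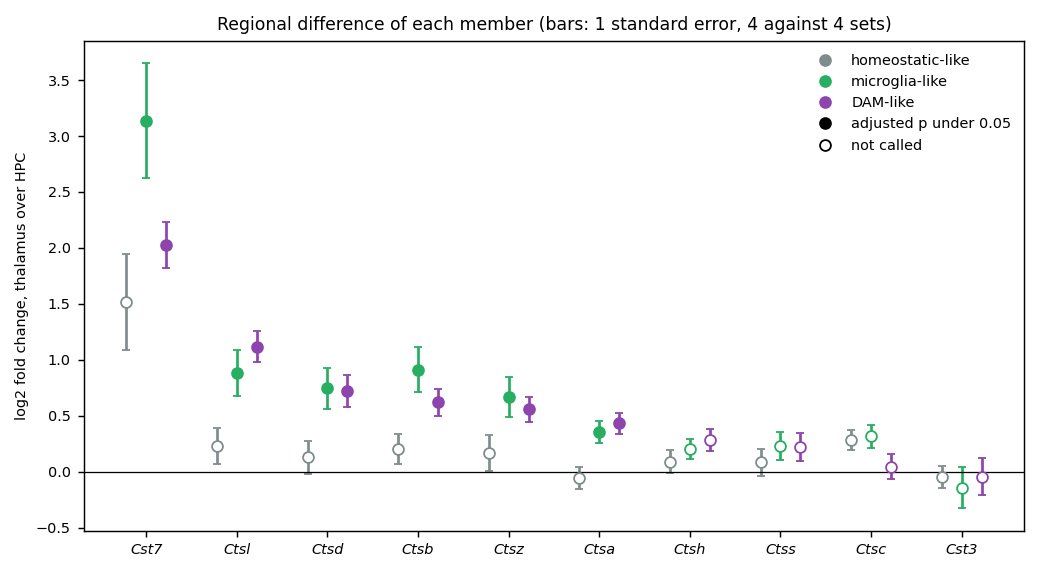
Log2 fold change of thalamus over HPC for each member in homeostatic-like, all microglia-like and DAM-like cells, with bars of 1 standard error, 4 against 4 sets; filled points have an edgeR adjusted p under 0.05. Filled points are at 0.35 to 3.14 in all microglia-like and at 0.43 to 2.03 in DAM-like cells, and no homeostatic-like point is filled.

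The DAM-like cells were made of 2 clusters, and their mix differed between regions. Cells of the cluster led by Spp1, Fabp5 and Lgals3 were 42.8%, 36.1%, 32.6% and 32.8% of the DAM-like cells in the thalamus sets and 30%, 15.3%, 12% and 5.61% in the HPC sets. In its thalamic cells the members took 7.30% ± 0.445 (SD, n = 4) of all UMIs, and 5.26% in HPC set 1, the single HPC set with at least 20 such cells. Its cells were poor in the nuclear RNA Malat1 (9.40 UMIs per 10000 against 176 in the other DAM-like cluster) and had a median of 2172 UMIs. Cst7 was at 29.1 ± 4.49 and 11.7 there, Ctsd at 188 ± 17.3 and 145, Ctsl at 57.1 ± 13 and 23.2, and Ctsb at 49.6 ± 6.82 and 33.8. For each of the 4 genes, the single HPC set lay below all thalamus sets.

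In the larger DAM-like cluster, led by Ctnna3, Lpl and Etl4 with 1836 cells, 5 members were higher in the thalamus, a comparison added after the data had been seen. Cst7 rose by 1.69 ± 0.162 on the log2 scale (edgeR adjusted p = 1.93e-06), from 2.21 ± 0.572 to 7.34 ± 1.82 UMIs per 10000 (SD, n = 4 and 4). Ctsl rose by 0.90 ± 0.114 (edgeR adjusted p = 4.36e-05), from 18.5 ± 1.42 to 33.4 ± 6.18. Ctsd rose by 0.55 ± 0.115 (edgeR adjusted p = 0.00600), Ctsb by 0.46 ± 0.101 (edgeR adjusted p = 0.00895) and Ctsz by 0.37 ± 0.0946 (edgeR adjusted p = 0.0261), whereas Ctsa at 0.29 ± 0.0838 did not pass (edgeR adjusted p = 0.0511) and was called under the block. Of all genes 4.25% were called. Cst7 and Ctsl were thus called without the Malat1-poor cluster, with smaller log2 fold changes than over all DAM-like cells.

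Further ways of choosing the DAM-like cells left fewer calls. A gate on marker genes in each cell, in place of clusters, left 7 of the 8 sets with at least 20 such cells and kept Ctsl at 1.04 ± 0.155 (edgeR adjusted p = 0.00383) and Cst7 at 1.56 ± 0.218 (edgeR adjusted p = 0.00251) as the members called, with 1.34% of all genes called. Clusters made without integrating the regions kept Ctsl at 0.90 ± 0.147 (edgeR adjusted p = 0.00547) and Cst7 at 1.58 ± 0.234 (edgeR adjusted p = 0.00265), with 0.875% of all genes called. Ctsb, Ctsd, Ctsz and Ctsa kept a positive log2 fold change in both, from 0.27 to 0.55, and did not pass the test.

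In homeostatic-like cells 0 of 10 members were called by edgeR or DESeq2, against 1.86% of 11894 genes by edgeR, and 2 members, Ctsc and Cst7, had an unadjusted p under 0.05, as had 14.6% of all genes. Cst7 was at 1.43, 0.531, 0.626 and 0.678 in the thalamus sets and at 0.605, 0.175, 0.144 and 0.246 in the HPC sets. The ranges overlapped through HPC set 1, and the log2 fold change of 1.52 ± 0.430 did not pass the test (edgeR adjusted p = 0.109). Ctsc was at 4.87, 4.49, 4.36 and 4.30 against 4.14, 3.58, 3.48 and 3.57, without overlap, as were 8.85% of all genes, and its log2 fold change was 0.28 (edgeR adjusted p = 0.147). HPC set 1 was the high HPC set for all of Ctsb, Ctsd and Ctsl, with 12.9, 55.1 and 17.8 against 9.17 to 10.4, 39.5 to 42.0 and 11.2 to 12.6 in the others. Without it 8 members were called, against 9.25% of all genes, with Cst7 at 2.11 ± 0.253 (edgeR adjusted p = 2.67e-05), Ctsc at 0.37 ± 0.0519 (edgeR adjusted p = 0.000121) and Ctsl at 0.43 ± 0.0824 (edgeR adjusted p = 0.00215). Under the block 4 members were called, Cst7, Ctsc, Ctsl and Ctsb, against 6.11% of all genes. Of 18 tested dissociation genes 10 were higher in thalamic homeostatic-like cells (83.6 to 97.6 against 61.6 to 71.9 UMIs per 10000). There 9 of 14 tested DAM markers (91.1 to 187 against 37.0 to 260), 4 of 13 interferon genes (4.94 to 6.58 against 3.32 to 6.04) and 4 of 10 T or NK cell markers (0.857 to 1.07 against 0.399 to 0.838) were higher as well. The part of these lists in the members' values was not tested.

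Whether the regional difference of a member differed between the states was tested directly, with each set as a block. For 6 members it was larger in DAM-like than in homeostatic-like cells, against 2.35% of 12301 genes with a difference in either direction. The difference of the log2 fold changes was 0.89 ± 0.106 for Ctsl (edgeR adjusted p = 2.46e-06), 0.64 ± 0.103 for Ctsd (edgeR adjusted p = 0.000200), 0.53 ± 0.0957 for Ctsa (edgeR adjusted p = 0.000828) and 0.44 ± 0.0974 for Ctsb (edgeR adjusted p = 0.00714). For Cst7 it was 0.68 ± 0.163 (edgeR adjusted p = 0.0147) and for Ctsz 0.41 ± 0.107 (edgeR adjusted p = 0.0273). Ctsc (-0.18), Ctsh (0.24), Ctss (0.17) and Cst3 (0.05) did not pass, with edgeR adjusted p-values of 0.265 to 0.936. The calls of Cst7 and Ctsz were lost without single sets of either region, for Cst7 without thalamus set 2 or 3 or HPC set 1 or 4. Without HPC set 1 the difference was 0.35 for Cst7 (edgeR adjusted p = 0.326). Without the Malat1-poor cells Ctsl alone was called, against 0.756% of all genes.

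The same pattern is seen in the ratio of the states within each set, given as a description because the states are clusters of the same cells. Ctsl was 2.15 to 2.60 times as high in DAM-like as in homeostatic-like cells of the thalamus sets and 1.17 to 1.67 times as high in those of the HPC. Ctsd was 2.34 to 2.66 and 1.71 to 1.81 times, Ctsb 2.83 to 3.06 and 2.20 to 2.65 times, and Ctsa 1.69 to 1.89 and 1.26 to 1.47 times as high. For these 4 genes the ratio of every thalamus set was above that of every HPC set. The ranges of Ctsz (1.97 to 2.44 and 1.52 to 2.25) and Cst7 (10.8 to 17.3 and 6.88 to 14.8) overlapped. Cst3 went the other way, with ratios of 0.510 to 0.694 in the thalamus and 0.522 to 0.808 in the HPC, and was lower in the DAM-like cells of all 8 sets. Ctsh was higher in the DAM-like cells of 4 of 8 sets and Ctss of 6 of 8, and Ctsc had ratios of 1.01 to 1.12 and 1.18 to 1.68.

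**Figure D4:**
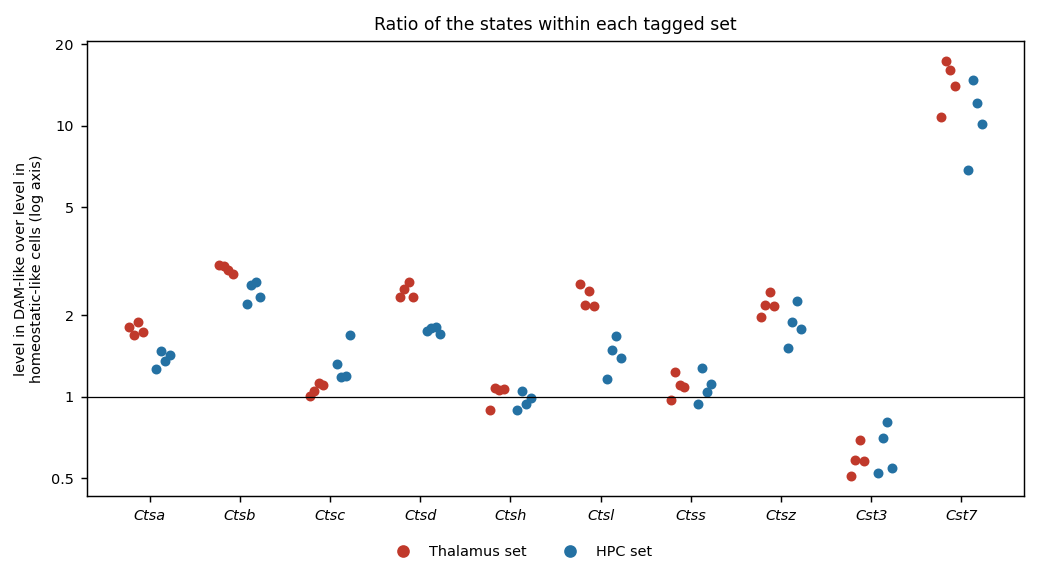
Level in DAM-like over level in homeostatic-like cells of the same set for each member on a log axis, with a point for each set coloured by region and a line at 1. The points of Cst7 lie between 6.88 and 17.3, those of Cst3 below 1, and for Ctsa, Ctsb, Ctsd and Ctsl all thalamus points are above all HPC points.

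The summed level does not say how many cells hold a transcript, so shares of cells were taken after thinning to 2000 UMIs. Shares after thinning are expected values and not counts of whole cells, so a share can lie below that of a single cell. Shallower cells were left out, so the shares cover 1832 of 2161 thalamic and 551 of 612 HPC DAM-like cells. At least 1 Cst7 UMI was found in 77.0%, 57.8%, 61.7% and 61.4% of the DAM-like cells of the thalamus sets and in 39.9%, 29.98%, 23.6% and 30.2% of those of the HPC sets. All thalamus sets were higher (two-sided exact permutation p = 0.0286, the smallest that 4 against 4 sets allow). Exchanging regions only within same-numbered sets gave an exact permutation p of 0.125, the smallest that 4 pairs allow. The exact permutation p of 0.0286 thus lies under 0.05 without the pairing only. Here and below, exact permutation p-values of shares are otherwise given without the pairing and before adjustment over the members. Shares without overlap were found for 16.8% of all genes in DAM-like cells, with the thalamus above for 3.47%. Over all microglia-like cells the Cst7 shares were 44.4%, 23.0%, 20.7% and 26.6% against 13.1%, 5.56%, 3.29% and 7.54% (exact permutation p = 0.0286), where 18.7% of all genes had no overlap. Without thinning they averaged 43.3% and 15.0%. In homeostatic-like cells the share was 11.4% ± 3.55 and 4.92% ± 3.07 (SD, n = 4 and 4), with overlap. Thinned neutrophil-like cells held a Cst7 UMI in 11% (n = 3 sets, 148 cells) and 1.60% (n = 3, 325 cells). Neutrophil-like cells had median depths of 1841 to 2068.5 UMIs over the thalamic and 1848 to 2311 over the HPC sets. The limit of 2000 UMIs thus left only their deeper cells in these shares. The homeostatic-like share of the thalamus lay near the neutrophil-like share of the thalamus. Expression and released transcripts are not told apart in either, and the part of released transcripts was not tested.

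Ctsb and Ctsl were detected in most microglia-like cells of either region, so high counts separated the regions more than detection did. At least 5 Ctsl UMIs of 2000 were held by 75.6%, 52.4%, 56.9% and 58.6% of thalamic and 34.9%, 31.9%, 30.4% and 28.1% of HPC DAM-like cells. Ctsz gave 79.4%, 71.8%, 75.2% and 74.1% against 62.9%, 52.0%, 57.4% and 49.8%. For Ctsb the shares were 80.9%, 65.2%, 66.3% and 70.4% against 56.5%, 51.3%, 49.0% and 46.7%, and for Cst7 29.8%, 13.2%, 14.9% and 14.3% against 4.61%, 2.18%, 0.0982% and 0.345%. For all 4 genes each thalamus set was above each HPC set (exact permutation p = 0.0286), as for 2.13% of all genes in DAM-like cells. Of T- or NK-like cells 2.01% and 0.464% held 5 Ctsb UMIs, and 2.10% and 0.784% held 5 Ctsl UMIs. Without thinning, the share of DAM-like cells with 5 Ctsb UMIs was 91.8% and 90.5% in thalamus and HPC and did not differ beyond the spread of the sets (exact permutation p = 0.514), the median depths of DAM-like cells being 4885 to 5293 UMIs over the thalamic and 5328 to 6047 over the HPC sets.

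**Figure D5:**
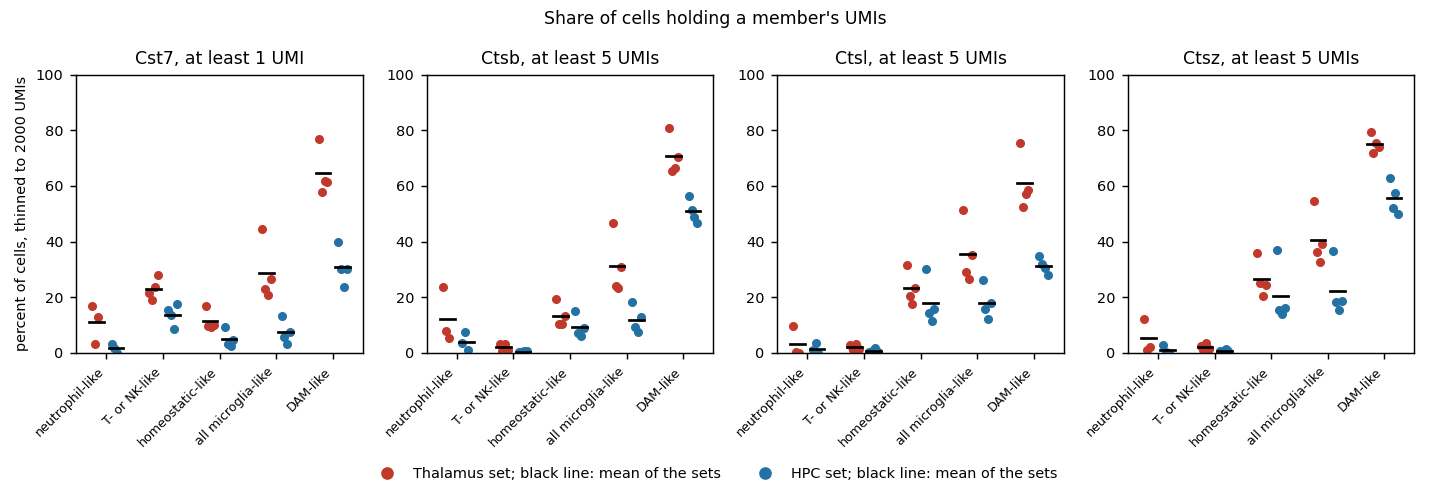
Percent of cells with at least 1 UMI of Cst7 or at least 5 UMIs of Ctsb, Ctsl or Ctsz after thinning to 2000 UMIs, by cell class, with a point for each set coloured by region and a black line at the mean of the sets. In DAM-like cells the thalamus sets lie above the HPC sets for each gene, and neutrophil-like and T- or NK-like cells are shown for comparison.

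Outside microglia edgeR called 0 of the members tested in T- or NK-like, macrophage- or monocyte-like, neutrophil-like and dendritic-like cells. Cst7 was too low for the test in neutrophil-like cells, at 1.01 ± 0.819 against 0.143 ± 0.128 UMIs per 10000 (SD, n = 3 and 3) without overlap, and B- or plasma-like cells were not compared. In T- or NK-like cells, where 0.0299% of 10041 genes were called, Cst7 was at 1.64, 1.06, 1.95 and 1.93 in the thalamus sets and at 0.920, 0.638, 0.513 and 0.968 in the HPC sets. The ranges did not overlap, as for 4.81% of all genes, and the log2 fold change was 1.02 ± 0.215 (edgeR adjusted p = 0.154). DESeq2 called it, and under the block edgeR called 4 members, Cst7 at 0.96 (edgeR adjusted p = 0.00294), Ctsz at 0.57 (0.0265), Ctsb at 0.54 (0.0282) and Ctsl at 0.72 (0.0498), against 0.83% of all genes. In macrophage- or monocyte-like cells (4 against 3 sets, 0.0158% of 6343 genes called) Ctsl was at 6.49, 3.52, 3.12 and 3.94 against 2.19, 2.72 and 1.16, without overlap as for 5.49% of all genes, with a log2 fold change of 1.03 and an unadjusted edgeR p of 0.00411. There Cst7 was called under the block, at 2.04 (edgeR adjusted p = 0.0278), with 0.246% of all genes. In neutrophil-like cells (3 against 3 sets, 0.0277% of 3604 genes called) Ctsb at 8.76 ± 3.19 against 4.57 ± 0.969 and Ctsd at 25.8 ± 8.04 against 14.3 ± 5.42 did not overlap, as for 9.24% of all genes, and had log2 fold changes of 0.91 and 0.83 that did not pass. In dendritic-like cells (3 against 2 sets, 0.0157% of 6386 genes called) no member had an unadjusted p under 0.05, against 4.37% of all genes. There were 3 such members in macrophage- or monocyte-like cells (3.69% of all genes), 2 in neutrophil-like cells (3.97%) and 4 in T- or NK-like cells (6.19%). DESeq2 called 0 members in macrophage-, neutrophil- and dendritic-like cells.

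A wider list of 48 genes held the other cathepsins and legumain, the other cystatins, stefins and protease-inhibiting serpins, and the proteins that carry or partner lysosomal enzymes. In microglia-like cells 24 were expressed enough to be tested, 5 were higher in the thalamus and 2 lower, against 9.19% and 4.98% of all genes. In DAM-like cells 1 of 22 was higher, against 3.7% of all genes. Of 6 tested proteases 2 were higher in microglia-like cells. Ctse, an aspartic protease, was at 0.199 ± 0.0288 against 0.0750 ± 0.0196 UMIs per 10000 (log2 fold change 1.45 ± 0.185, edgeR adjusted p = 0.00193). Ctsw, a cathepsin of cytotoxic lymphocytes, was at 0.0282 ± 0.00646 against 0.0115 ± 0.00227 (1.37 ± 0.236, edgeR adjusted p = 0.00627), and 8 of 12 tested T or NK cell markers were higher in the same cells, with sums of 0.667 to 0.864 against 0.361 to 0.809. Of 2 tested inhibitors Cstb, the cytosolic cystatin B, was higher, at 1.19 ± 0.238 against 0.731 ± 0.192 (0.76 ± 0.207, edgeR adjusted p = 0.0365), with sets of the regions overlapping, and it lost its call under 8 of 18 other settings.

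Among the 16 partners and regulators, all of them tested, 2 were higher and 2 lower in thalamic microglia-like cells, where 14.2% of all genes were called. Glb1, the beta-galactosidase that cathepsin A protects, rose by 0.38 (edgeR adjusted p = 0.00988), and Gnptab, which makes the mannose 6-phosphate tag of lysosomal enzymes, by 0.69 (edgeR adjusted p = 0.0128). Sort1, a sorting receptor, fell by 0.31 on the log2 scale (edgeR adjusted p = 0.0134), and Tfe3, a transcription factor of the TFEB family, had a log2 fold change of -0.15 (edgeR adjusted p = 0.0461) that lost its call under 13 of 18 other settings. Ppt1, a lysosomal thioesterase, was the listed gene called in DAM-like cells, with a log2 fold change of 0.39 ± 0.101 (edgeR adjusted p = 0.0286), and lost its call under 11 of 20.

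Genes whose levels ran most like each member were taken over 51 sums of a class or state in a set, among 7188 genes, by Pearson's r of log2 levels. The sums share sets and cell classes, so r is a description with no test. Ctsa ran with Cd68 (r = 0.976) and Lamp1 (0.967), which code for lysosomal membrane proteins, Ctsz with Grn (0.965), the gene of progranulin, and Cd68 (0.958), and Ctsb with Lamp1 (0.939) and Mitf (0.937). Ctsd ran with Timp2 (0.970), Ctsl with Ctsd (0.957), Ctss with Aif1 (0.965), Ctsh with Erp29 (0.946), Ctsc with P2rx4 (0.907) and Cst3 with Specc1 (0.937). Cst7 ran with Lpl (0.841), a DAM marker, and Etl4 (0.803), with lower values than those of the other members. Within the family Ctsa and Ctsz had r = 0.953 and Ctsh and Ctss 0.926, while Cst7 and Ctsc had 0.233, the lowest pair.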

How the data were processed

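The authors deposited raw UMI counts per gene and cell, made with Cell Ranger 7.1.0 per the file headers (an earlier release is named in the study's methods) on GRCm38 and not normalized. Whether intron reads were counted is not given in the sources used here. Multiplexing oligos, 14.6% of UMIs, were left out. As in the study, cells with 200 to 7500 genes and at most 2% mitochondrial counts were kept. Cells were clustered with Seurat 5.3.0 (R 4.3.3): counts scaled to 10000, 2000 variable genes without the members, anchor integration of the regions over 30 dimensions, 20 neighbours, resolution 0.5. Microglia-like cells were clustered again, also without the listed pathway genes and the listed homeostatic, DAM and interferon genes. The listed cycling and MHC class II genes were not left out. Names needed at least 3 markers and 30% of a list, and 1 listed gene was not analysed here. Tags remove doublets between sets only and no doublet caller was run.

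Counts were summed per set and class (at least 20 cells), scaled with TMM factors, filtered with filterByExpr and tested with the edgeR 4.0.16 quasi-likelihood test, adjusted over all genes tested at 0.05. The SE given with an edgeR log2 fold change was derived from the test, as the size of the change over the square root of F. The test was tested on simulated data. Shares of cells were compared by two-sided exact permutation tests over 70 assignments, and by exchange within same-numbered sets, added after seeing the data. Alternatives were DESeq2 1.42.0 (size factors, Wald test), no filter, each set left out, the set number as a block, a mitochondrial limit of 1%, leaving out the 5% of cells with the most UMIs, cells with 2 markers of another class or cells under 40 Malat1 UMIs per 10000, a marker gate, no integration, and thinning to 1000 UMIs or none. The larger DAM-like cluster alone was added after seeing the data.

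The set number comes from the files and not from the labels. Deviations of same-numbered sets from their region's mean correlated at 0.514, 0.140, 0.480 and 0.185, and the numbers were taken to pair the sets. Thalamus set 3 and HPC set 2 correlated at 0.168, above the same-numbered sets 2, so the pairing is an assumption. Results under the block and of exchange within same-numbered sets rest on it. All 10 members were named whatever their value. Of the listed pathway genes, called proteases and inhibitors and at most 6 others were named. For each member the 2 genes with the highest correlation were listed, among genes with a mean of at least 20 CPM, computed from the counts with a prior count of 2. Members and gene lists were chosen with earlier results of these data known.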

Additional observations from a re-analysis of the deposited data

Results flagged for a closer look

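The values of 11 of 60 groups of 4 sets held a set far from the other 3 of its region. Taken singly, about 1 in 20 such groups pass this limit by chance. The 60 groups share sets and cells, so the count of 11 is not read against that share. HPC set 1 was such a set in microglia-like cells for Ctsa, at 4.88 UMIs per 10000 against 4.13 to 4.24 in the other HPC sets, and for Ctsz, at 19.8 against 13.1 to 14.1. In DAM-like cells it was so for Ctsb, at 28.3 against 24.3 to 24.6, and for Ctsd, at 96.3 against 71.3 to 71.8. In homeostatic-like cells it was so for Ctsc, at 4.14 against 3.48 to 3.58, for Ctsd, at 55.1 against 39.5 to 42.0, and for Ctsz, at 19.6 against 12.5 to 13.2. All of these HPC set 1 values were on the high side.

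Thalamus set 1 was far from the other thalamus sets in DAM-like cells for Ctsb, at 43.8 against 32.9 to 34.6, for Ctsl, at 49.8 against 31.9 to 34.5, and for Cst7, at 15.5 against 9.20 to 10.1. In homeostatic-like cells it was so for Cst7, at 1.43 against 0.531 to 0.678.

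For 6 members the regional log2 fold change differed between DAM-like and homeostatic-like cells by the direct test of that difference. DAM-like minus homeostatic-like, the difference was 0.53 for Ctsa, 0.44 for Ctsb, 0.64 for Ctsd, 0.89 for Ctsl, 0.41 for Ctsz and 0.68 for Cst7.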

How the results depend on the processing

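In DAM-like cells Cst7 and Ctsl were called under all 20 other settings, with edgeR or DESeq2 adjusted p-values up to 0.00265 and 0.00547. In microglia-like cells Cst7 was called under all 18, up to 0.0250. The number of members called moved as follows. In microglia-like cells it was 3 with the mitochondrial limit of 1% (8.69% of all genes called), 4 without the 5% of cells with the most UMIs and 4 without Malat1-poor cells, where Ctsa and Ctsz lost their calls, and 1 to 9 with a set left out (6.36% to 23.5%). In DAM-like cells it was 2 with the marker gate, 2 without integration, and 5 with the 1% limit and without Malat1-poor cells, where Ctsa lost its call. In homeostatic-like cells it was 1 with no filter, 1 without integration, 4 with the replicate block and 0 to 8 with a set left out. The state difference was called for 1 member without Malat1-poor cells and for 3 without integration. T- or NK-like cells had 1 with DESeq2, 2 with no filter and 4 with the replicate block, macrophage- or monocyte-like cells 2 with no filter and 1 with the block, and neutrophil-like cells 1 with no filter. The microglia-like shares without overlap were 2 members after thinning to 1000 UMIs and 1 to 8 with a set left out. When regions were exchanged within same-numbered sets 0 passed, which was fixed in advance, since 4 pairs allow no p under 0.05. Beside these and the calls given above, the replicate block changed no call.

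Signs that changed belonged to members that were not called. Ctsc in DAM-like cells was -0.00562 without Malat1-poor cells, -0.18 with the marker gate, -0.024 without integration and -0.00901 in the larger cluster, and -0.032 to 0.13 with a set left out. Cst3 in DAM-like cells was 0.26 with the gate and -0.15 to 0.071 with a set left out. Without Malat1-poor cells the state difference was -0.00302 for Ctss and -0.16 for Cst3, and -0.041 to 0.15 for Cst3 with a set left out. In homeostatic-like cells Ctsa was -0.11 to 0.066 with a set left out. In dendritic-like cells Ctsl was 0.22 with DESeq2 and Cst3 -0.066 with the block, and with a set left out Ctsa was -0.20 to 0.13, Ctsb -0.32 to 0.15, Ctsd -0.32 to 0.078, Ctsl -0.45 to 0.26, Ctsh -0.028 to 0.31, Cst7 -0.19 to 0.27 and Cst3 -0.10 to 0.35. In neutrophil-like cells Ctsh was -0.14 to 0.35, Ctss -0.64 to 0.032 and Cst3 -0.47 to 0.054. In T- or NK-like cells Ctsc was 0.013 with no filter and -0.17 to 0.13 with a set left out, Ctsh -0.10 to 0.26 and Ctss -0.050 to 0.22. The causes were not tested. Few cells limit the DAM-like values of HPC set 3 (50 cells) and the macrophage-, neutrophil- and dendritic-like comparisons.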

Other observations

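Levels of some members in further microglial clusters are given as values, with no test between the regions. In interferon-like cells, led by genes such as Ifit3 and Cxcl10 that interferon induces, Ctsb was at 23.5 ± 6.77 UMIs per 10000 in the thalamus and 11.8 ± 1.33 in the HPC (SD, n = 4 and 4), Ctsd at 69.0 ± 19.1 and 41.8 ± 5.05, and Cst7 at 3.83 ± 2.78 and 0.677 ± 0.410. In the cluster led by the MHC class II genes H2-Aa, H2-Eb1 and Cd74, with at least 20 cells in 2 sets of each region, Cst7 was at 7.28 and 10.0 in the thalamus and at 0.815 and 0.928 in the HPC, while Ctss, which serves MHC class II loading, was at 64.5 ± 3.46 and 65.0 ± 2.21. The cluster led by Cxcl13, Aoah and Cp had Ctsb at 18.5 ± 1.15 and 12.0 ± 1.79 and Cst7 at 2.09 ± 0.565 and 0.650 ± 0.163 (n = 4 and 4). In the cluster led by C4b, Cd244a and Adgb (n = 4 and 3) the ranges of Ctsl overlapped, at 17.0 ± 2.25 in the thalamus and 18.7 ± 1.33 in the HPC.

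The cluster led by Stmn1, Mki67 and Birc5 was left unnamed. In it 12 DAM and 10 interferon markers passed the naming limits beside 8 cycling markers. It was numerous enough in thalamus sets 1 and 4, where 51.9% and 60% of its cells were Malat1-poor. In these 2 sets Cst7 was at 20.5 ± 4.58, Ctsd at 117 ± 2.46 and Ctsl at 43.4 ± 4.95. B- or plasma-like cells were numerous enough in HPC set 1, where Cst7 was at 0.157 and Cst3 at 20.9.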
